A study of Homo sapiens with 16 samples.

Results

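Translation initiation factors load the small ribosomal subunit onto an mRNA and find its start codon. The group described here is a fixed list of 41 human genes for these factors, matched by gene symbol out of 60669 genes in each of the deposited tables. The list was proposed with earlier results of these data known, so it got no set test. All 41 symbols were found once in both tables. The cells are HMC3, a human line labelled as microglial, in 16 libraries made from 100 ng of total RNA each. Smart-seq2, which amplifies polyadenylated RNA, gave 5 wild-type (WT) libraries and 5 labelled METTL3 knockout (KO). Depletion of ribosomal RNA followed by a directional library kit gave 3 WT and 3 METTL3 KO libraries. No drug, time point or other allele is named for any group, and how the knockout line was made, or whether it is 1 clone, is not given in the sources used here. METTL3 is the catalytic subunit of the enzyme that places N6-methyladenosine on mRNA.

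In initiation, EIF1 and EIF1AX hold the small subunit in a form that scans the mRNA, and the 3 subunits of eIF2 bring the initiator tRNA as a complex with GTP. EIF2B exchanges GDP for GTP on eIF2, and its inhibition by phosphorylated eIF2 is the switch of the integrated stress response. EIF3, the largest of the factors, bridges the small subunit to the cap complex, in which EIF4E binds the mRNA cap, EIF4G1 is the scaffold and EIF4A1 or EIF4A2 unwinds RNA. EIF5 and EIF5B end the process by GTP hydrolysis and subunit joining. METTL3 protein itself has been reported to bind EIF3H, and EIF3 to bind methylated mRNA, which is background and was not measured here.

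The rRNA-depleted libraries were used as TPM, each gene's share of a library's transcripts per length. The poly(A) libraries were used through the authors' deposited table, which compares the genotypes and lists no library on its own. Depth recovered from TPM and gene length was 266157 to 487272 reads in WT and 512627 to 1267171 reads in KO libraries, so members with low TPM rest on few reads. KO libraries 1 and 2 differed by no more than sampling noise (chi-square per degree of freedom 1.02 over 10120 genes, p = 0.065, against 1.16 to 1.53 for the other pairs of a genotype) and were averaged and counted as 1 sample, which left 3 WT and 2 KO samples. Nothing in the labels says that libraries came from separate cultures, so p-values measure the spread between these libraries, which may be technical. METTL3 itself stood at 25.4 to 31.6 TPM in WT and 39.2 to 42.7 TPM in KO libraries (limma adjusted p of 0.106), so its mRNA does not check the genotype label. Of 11 microglial markers, 8 were listed at 0 TPM in all 6 libraries (AIF1, CX3CR1, P2RY12, TMEM119, ITGAM, PTPRC, TYROBP and SPI1), and the 11 summed to at most 6.47 TPM. Of 8 fibroblast or mesenchymal markers, LUM was at 0 TPM in all 6 libraries. COL3A1 and DCN were above 0 in 1 WT library each, at 2.08 and 0.47 TPM. The sum of the 8 was 11521 to 13945 TPM in WT and 5359 to 5452 TPM in KO libraries. COL1A1 alone fell by more than the sum did, with 9612 to 11995 TPM in WT and 749 to 865 TPM in KO libraries. Part of its fall was offset in the sum by VIM (446 to 521 and 2157 to 2306 TPM) and FN1 (803 to 871 and 2168 to 2237 TPM). These genes of the same list were higher in KO libraries. The part of these markers in the results below was not tested. In bulk RNA, fewer cells of a kind and less of an mRNA per cell cannot be told apart.

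Many mRNAs of the translation machinery begin with a 5′ terminal oligopyrimidine tract, a C at the first base followed by C or T, through which LARP1 and mTOR signalling control their translation. A tract of this kind, taken as a C followed by at least 4 bases that are each C or T, on the sense strand and starting at the annotated first base, was looked for at all annotated starts of each gene in RefSeq (GRCh38.p14). Starts were found for 34 of the 41 members. The others were EIF2S2, EIF3A, EIF3E, EIF3G, EIF3H, EIF3L and EIF4EBP1. A tract was present in 8 of the 34 (23.5%), against 5.14% of 27305 genes. Those 27305 genes were not limited to genes expressed in these cells, while all 41 members were expressed. A share over expressed genes alone was not computed, for the tract or for the features below. In all, 9 sequence features were searched at these starts, and the tract and the CACGTG motif below were chosen for description after the shares of all 9 were seen. The 8 starts are shown because the tract is a feature of the mRNAs themselves that the list did not use. Each line gives 5 bases before the first base and 20 from it on, with the tract in capitals.
EIF2A (chr3:150546782-150546806, plus strand): ggtttCTCTTTCCgggacaacatgg
EIF2S3 (chrX:24054951-24054975, plus strand): ccttcCTCTTTTggcaacatggcgg
EIF3D (chr22:36529147-36529171, minus strand): gtttcCTCTTTTCCTggtttctcaa
EIF3F (chr11:7987332-7987356, plus strand): gcctcCTTCTTTCTCgacaagatgg
EIF3K (chr19:38619183-38619207, plus strand): accacCTCTTCCTgttcccgtcctt
EIF3M (chr11:32583826-32583850, plus strand): gttccCTTTTCCggtcggcgtggtc
EIF4A2 (chr3:186783572-186783596, plus strand): gctgtCTTTTCagtcgggcgctgag
EIF4B (chr12:53006451-53006475, plus strand): cgggtCTTTTgcgttctctttccct

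The E-box CACGTG, a palindrome that reads the same on both strands and is the site to which MYC proteins can bind, was present in the 250 bases before a start in 9 of the 34 members (26.5%), against 7.73% of the 27305 genes. The other 7 features were CCAAT (41.2% of members, 37.0% of genes), GGGCGG (73.5% and 46.2%), CCGGAAG (20.6% and 10.2%), an interferon response element (8.82% and 3.71%), TGATGNAA (0 members and 3.89% of genes), the palindromic NRF1 motif (0 members and 1.28% of genes), all within the 250 bases and on both strands, and a YY1-type motif over the whole sequence of 250 bases before to 50 after the start (5.88% and 1.20%). A gene was counted when at least 1 of its starts had the match, and no match says only that the letters are not in these windows. EIF4E is the cap-binding protein and a textbook MYC target, and its window held the motif at more than 1 place. A site from EIF4E, from its partner EIF4G1 and from EIF1B is shown with the motif in capitals.
EIF4E (chr4:98929341-98929370, minus strand): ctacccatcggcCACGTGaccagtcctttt
EIF4G1 (chr3:184314450-184314479, plus strand): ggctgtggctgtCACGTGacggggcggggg
EIF1B (chr3:40309641-40309670, plus strand): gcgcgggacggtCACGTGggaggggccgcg

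In the rRNA-depleted libraries most initiation factor mRNAs took a larger share of the library in KO than in WT. Past a limma adjusted p of 0.05, 24 of the 41 members (58.5%) were higher, where 22.9% of all 14789 tested genes were, and 3 (7.32%) were lower, where 12.4% of all genes were. EIF3E, EIF3H and EIF3L, subunits of EIF3, rose by 6.26 to 8.52-fold, and EIF6, EIF3B and EIF4G1 fell. Since the list was chosen with earlier results of these data known, the shares above describe it and do not test it. All 41 passed the filter on low values. The median log2 change was 0.80 over the members and 0.41 over all genes, and 31 of the 41 lay above the latter. Members were also more abundant than most genes, with a median of 39.2 to 48.9 TPM per WT library against 12.8 to 13.8 TPM for all tested genes, and abundant genes pass the test more easily. Among the 10458 genes that averaged 5 or more recovered reads, which hold all 41 members, 34.2% were higher and 15.4% lower, and 27 and 3 of the members were. This second background was added after the data were seen.

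Because all genes together had a median of 0.41, the share of calls in each direction depended on scaling. With median ratio scaling, which brings that median to 0.11, 16 members (39.0%) were higher and 4 (9.76%) lower, where 16.0% and 16.9% of all genes were. With the trend of level with transcript GC content removed from each library, 18 (43.9%) were higher and 6 (14.6%) lower, where 13.0% and 13.8% of all genes were. Across the deposited scale, 3 rescalings and the GC correction, 14 members stayed higher and 3 lower past the threshold, where 10.1% and 9.29% of 14669 genes did so. Without KO library 3, which leaves 1 KO sample assumed to vary like the WT samples, the calls fell to 11 higher and 1 lower, and those over all genes to 6.79% and 4.46%, while the members' median log2 change was 0.85. Changes below are on the log2(TPM + 1) scale, and "relative" means after subtracting 0.41.

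**Figure D1:**
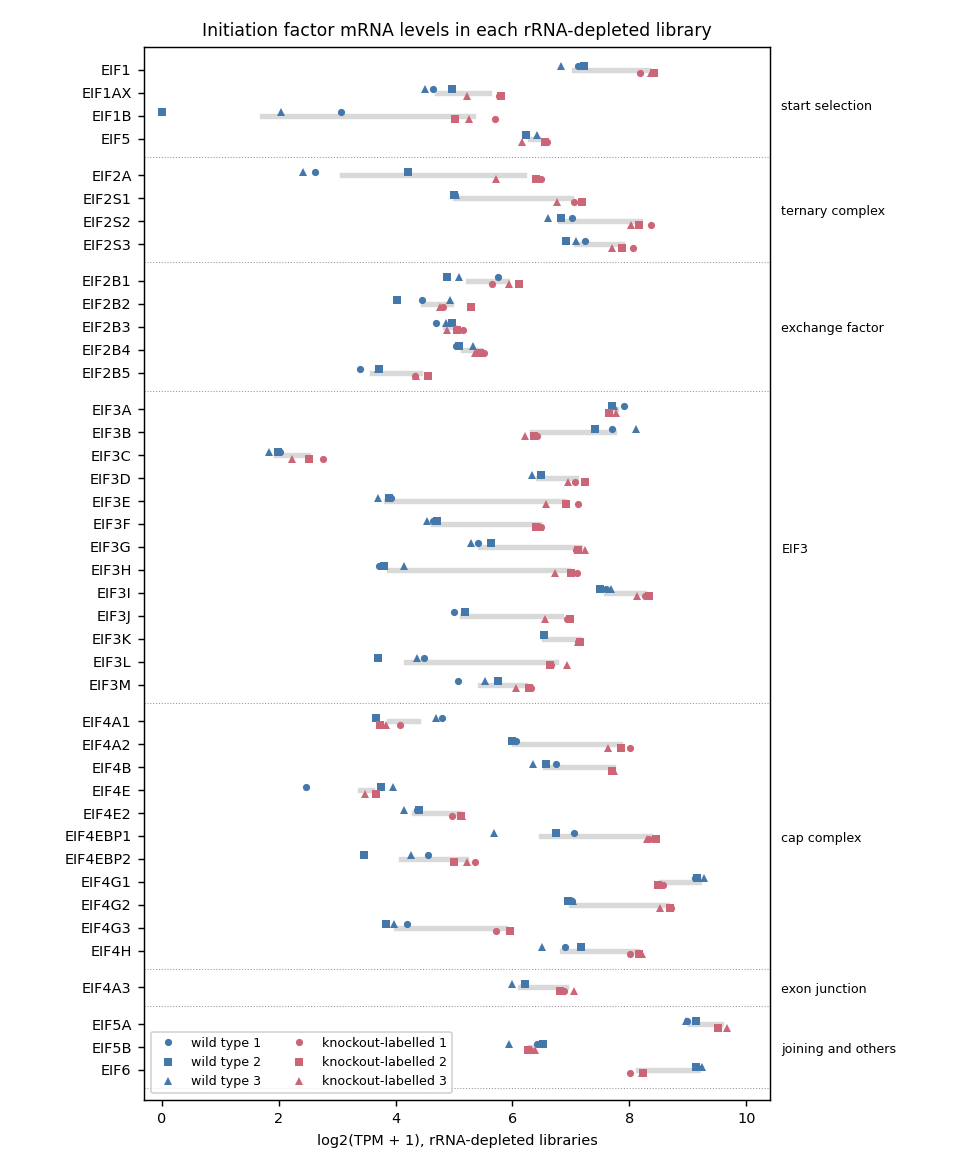
Level of each of the 41 mRNAs in the 6 rRNA-depleted libraries, on a log2(TPM + 1) axis, grouped by role, with WT libraries in blue, KO libraries in red and a grey bar between the group means. In 30 members every KO library lies above every WT library, in EIF3B, EIF4G1 and EIF6 every KO library lies below, and in the other 8 the groups overlap.

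Without a test, the values of 30 members (73.2%) in the 3 KO libraries all lay above those in the 3 WT libraries, where 38.4% of all tested genes did so, and those of 3 members lay below, where 19.9% of all genes did so. The plot of levels by library shows the pattern by role.

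Among the factors of start selection, EIF1, which keeps the scanning ribosome from starting at poor codons, stood at 139, 149 and 112 TPM in WT libraries 1 to 3 and at 289.6, 340.2 and 332 TPM in KO libraries 1 to 3. The groups did not overlap. EIF1 rose 2.43-fold, by 1.28 on the log2 scale (SE 0.15; relative 0.87; limma adjusted p of 0.00391). Its close paralogue EIF1B was at 7.41, 0 and 3.13 TPM in WT and at 50.8, 31.5 and 37.2 TPM in KO libraries. WT values of EIF1B rest on 3 reads in all, against 62 in KO, a ratio per library read of 8.52 with an exact 95% interval of 2.78 to 42.4 that covers counting error only. The limma adjusted p of EIF1B was 0.0351, and it passed 0.05 neither with median ratio scaling (log2 change 3.35; adjusted p of 0.0504) nor with the GC trend removed (2.83; 0.0627), against 3.62 on the deposited scale. EIF1AX did not pass (limma adjusted p of 0.0679), and EIF5, which triggers GTP hydrolysis on eIF2, stood at 77.6 ± 5.95 TPM in WT (SD, n = 3) and 82.6 ± 16.9 TPM in KO (SD, n = 2).

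Every subunit of eIF2 was higher in KO. EIF2S1, the alpha subunit on which the stress kinases act, stood at 31.3, 31.1 and 31.8 TPM in WT and at 132, 145 and 107 TPM in KO libraries. The WT values of EIF2S1 lay within 1 TPM of each other and all KO values lay far above them. It rose 3.92-fold (log2 change 1.92, SE 0.16; limma adjusted p of 0.00204) and stayed past the threshold at 0.05 in all 19 refits tried. EIF2S2, the beta subunit, went from 128, 113 and 96.9 TPM to 328, 287 and 260.2 TPM, a 2.52-fold rise (log2 change 1.33, SE 0.16; limma adjusted p of 0.00417). EIF2S3, the gamma subunit that holds GTP and the tRNA, rose by 0.76 on the log2 scale (SE 0.15; limma adjusted p of 0.0172), which did not pass after median ratio scaling (limma adjusted p of 0.0706) and was -0.034 once the GC trend was removed. EIF2A, a separate factor that can also deliver the initiator tRNA, stood at 5.14, 17.5 and 4.35 TPM in WT and at 89.3, 83.5 and 51.6 TPM in KO libraries. EIF2A rests on 3, 7 and 3 WT reads, and its rise by 3.0 on the log2 scale (SE 0.63; limma adjusted p of 0.0188) was 2.04 with a limma adjusted p of 0.067 with the GC trend removed.

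The 5 subunits of EIF2B, the exchange factor for eIF2, did not pass the test. Their log2 changes ran from 0.15 for EIF2B3 to 0.80 for EIF2B5, with a median of 0.45, close to that of all genes. WT means lay between 11.2 and 38.1 TPM and KO means between 20.1 and 59.5 TPM. EIF2B5, the catalytic subunit, had WT values of 9.48, 12.12 and 12.02 TPM and KO values of 19.1, 22.5 and 19.5 TPM, which do not overlap, with a limma adjusted p of 0.0802. The difference between the eIF2 and EIF2B subunits was not itself tested.

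Of the 13 subunits of EIF3, 9 were higher, 1 was lower and 3 did not pass, where 22.9% of all tested genes were higher and 12.4% lower. EIF3H, a subunit of the octameric core, stood at 12.1, 12.9 and 16.7 TPM in WT and at 137, 126 and 105 TPM in KO libraries, from 8 to 18 and 105 to 297 reads. It rose 8.52-fold (log2 change 3.01, SE 0.22; limma adjusted p of 0.00157). EIF3E went from 14.2, 13.8 and 11.96 TPM to 139, 119.5 and 94.6 TPM, an 8.42-fold rise (log2 change 2.97, SE 0.22; limma adjusted p of 0.00149). The KO values of EIF3E and EIF3H all lay above 90 TPM and the WT values all below 20 TPM. With the GC trend removed the log2 changes were 2.08 for EIF3H and 1.90 for EIF3E, both still past the threshold.

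EIF3L, of the same core, went from 21.4, 12.04 and 19.5 TPM to 99.9, 98.8 and 122 TPM (6.26-fold; log2 change 2.61, SE 0.29; limma adjusted p of 0.00355). Its WT values rest on 13, 5 and 14 reads, and it did not pass in 1 of the 19 refits. EIF3F, also a core subunit, went from 24.1, 25.3 and 22.2 TPM to 88.6, 84.0 and 87.7 TPM (3.65-fold; log2 change 1.83; limma adjusted p of 0.002). In both subunits the lowest KO library was well above the highest WT library. EIF3I, part of the module that also holds EIF3B and EIF3G, went from 193, 180.0 and 205 TPM to 307, 322 and 281 TPM (log2 change 0.63, SE 0.11; limma adjusted p of 0.012), and its change was 0.27 with an adjusted p of 0.0931 after median ratio scaling. EIF3G, EIF3J, EIF3D and EIF3K also rose, by 1.73, 1.63, 0.61 and 0.59 on the log2 scale, the last pair without passing under median ratio scaling.

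EIF3B, the scaffold of that module, moved the other way. It stood at 207, 170.2 and 275 TPM in WT and at 84.2, 81.6 and 73.2 TPM in KO libraries, from 102 to 413 reads per library. The fall was to 0.359 of the WT mean (log2 change -1.44, SE 0.22; relative -1.85; limma adjusted p of 0.00786), and without KO library 3 it was -1.35 with an adjusted p of 0.108. EIF3A, the largest subunit and the other scaffold, stood at 219 ± 17.0 TPM in WT (SD, n = 3) and 209 ± 10.9 TPM in KO (SD, n = 2), with a log2 change of -0.07 that became -0.42 and past the threshold with median ratio scaling (limma adjusted p of 0.044). EIF3M did not pass (limma adjusted p of 0.0697). EIF3C had at most 3 reads in each WT library and 4 to 12 in the KO libraries, and reads may be split with its near-identical copy EIF3CL, so no direction is given for it.

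As the subunits that were low in WT rose and EIF3B fell, the levels of the EIF3 mRNAs other than EIF3C lay closer together in the rRNA-depleted KO libraries. Over the 12 subunits other than EIF3C, the highest was 17.2 to 23.0 times the lowest in the WT libraries and 3.91 to 4.25 times in the KO libraries. The SD of log2(TPM + 1) over these subunits was 1.47 to 1.51 in WT and 0.55 to 0.61 in KO libraries. Over all tested genes the SD was 2.21 to 2.34 in WT and 2.03 to 2.16 in KO libraries, so the spread over genes differed far less there. The highest subunit was EIF3A or EIF3B in WT libraries and EIF3I in KO libraries, and the lowest was EIF3E, EIF3H or EIF3L in WT and EIF3M in KO libraries. This measure was chosen after the values were seen and describes 6 libraries with no test, and EIF3 protein was not measured. The narrower fold range in KO depends on leaving out EIF3C, at 2.57 to 3.04 TPM in WT and 3.70 to 5.76 TPM in KO libraries. With EIF3C included it would be the lowest subunit in every library, and the fold ranges of WT and KO libraries would overlap. Whether the narrowing holds with the GC trend removed, or is seen in other genes of like abundance, was not tested. In the authors' deposited table the log2 fold changes of the 13 EIF3 subunits were small, from -0.36 to 0.26. The narrowing is thus described for the rRNA-depleted libraries only.

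**Figure D2:**
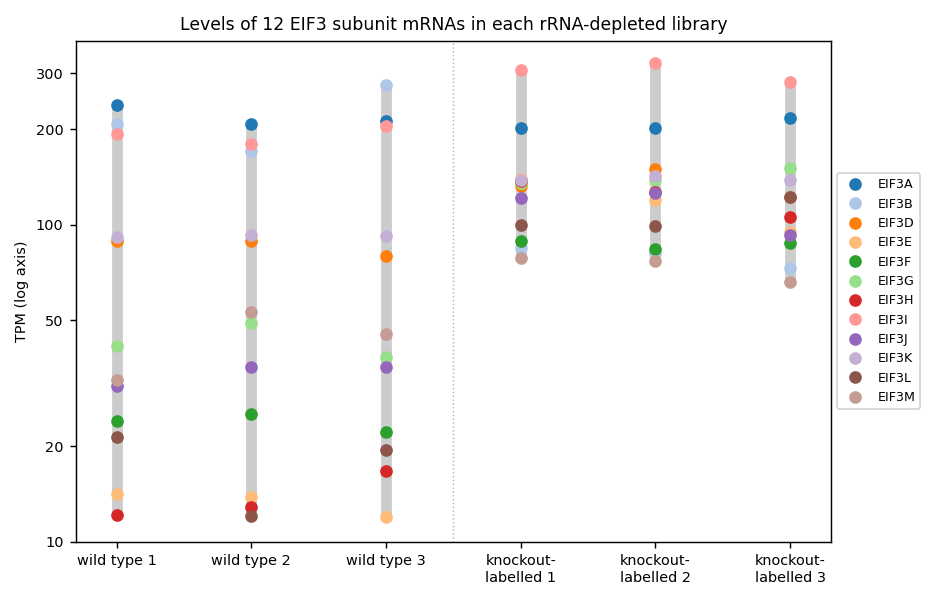
TPM of 12 EIF3 subunit mRNAs (EIF3C left out) in each rRNA-depleted library, on a log axis, with a grey bar from the lowest to the highest subunit. The bar spans 17.2 to 23.0-fold in the 3 WT libraries and 3.91 to 4.25-fold in the 3 KO libraries.

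Of the 11 genes of the cap complex and its regulators, 7 were higher, 1 was lower and 3 did not pass, beside the same 22.9% and 12.4% of all tested genes. EIF4G1, the main scaffold that joins EIF4E, EIF4A and EIF3, was among the most abundant members and fell, from 558, 568 and 619 TPM in WT to 379.5, 358 and 373 TPM in KO libraries. It rests on 453 to 1078 reads per library, and all KO values lay under all WT values. Its log2 change was -0.65 (SE 0.09; relative -1.06; limma adjusted p of 0.00693). Its relatives went up: EIF4G2, which lacks the EIF4E site and serves initiation without EIF4E, rose from 129, 123 and 131 TPM to 418, 414 and 369 TPM (3.07-fold; log2 change 1.61, SE 0.10; limma adjusted p of 0.00125), and EIF4G3 rose 3.88-fold, with 15.2 ± 2.08 TPM in WT (SD, n = 3) and 58.8 ± 3.48 TPM in KO (SD, n = 2). EIF4G2 stood below EIF4G1 in each WT library, above it in KO libraries 1 and 2 and level with it in KO library 3. EIF4G1 did not pass in 2 of the 19 refits. In the authors' deposited table EIF4G1 (-0.12), EIF4G2 (-0.05) and EIF4G3 (-0.19) did not pass, with adjusted p-values of 0.476, 0.490 and 0.560.

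The helicase EIF4A2 stood at 65.8, 62.4 and 64.4 TPM in WT and at 256, 232 and 197 TPM in KO libraries, a 3.43-fold rise (log2 change 1.76, SE 0.14; limma adjusted p of 0.00169). Its paralogue EIF4A1 had 26.6, 11.7 and 24.8 TPM in WT and 15.8, 12.4 and 13.4 TPM in KO libraries, with overlapping groups (limma adjusted p of 0.395). EIF4A1 overlaps the annotated read-through gene SENP3-EIF4A1 and snoRNA genes, so its level is uncertain. The helicase cofactors EIF4B and EIF4H rose 2.24-fold and 2.44-fold, EIF4B without passing once the GC trend was removed (limma adjusted p of 0.0516).

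EIF4E itself was low, at 4.53, 12.5 and 14.5 TPM in WT and 11.7, 11.7 and 10.1 TPM in KO libraries, and did not differ beyond its spread (limma adjusted p of 0.828). EIF4EBP1, which sequesters EIF4E until mTOR phosphorylates it, rose from 132, 106 and 50.2 TPM to 322, 349.7 and 313 TPM (3.37-fold; log2 change 1.85, SE 0.42; limma adjusted p of 0.023). Its WT values varied widely, and all KO values lay above them. EIF4EBP2, of the same function, had 16.9 ± 6.33 TPM in WT (SD, n = 3) and 36.0 ± 0.65 TPM in KO (SD, n = 2) and did not pass (limma adjusted p of 0.0705). EIF4E2, a cap-binding relative that represses translation, had a log2 change of 0.79 (limma adjusted p of 0.0375) that did not pass after median ratio scaling. EIF4A3, a helicase of the exon junction complex rather than of initiation, had 0.81 (limma adjusted p of 0.0108), which also did not pass under that scaling.

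Of the remaining members, EIF6 fell. EIF6 keeps the large ribosomal subunit from joining too early and is needed to make that subunit. EIF6 (ENSG00000242372; chromosome 20, 35278911 to 35284985, minus strand, GRCh38, GENCODE 29; its end overlaps AL121753.1) stood at 567, 563 and 603 TPM in WT and at 258, 299 and 296 TPM in KO libraries. The groups were far apart compared with the spread within each, with a WT mean of 578 ± 22.4 TPM (SD, n = 3) against 287 ± 12.1 TPM in KO (SD, n = 2). Its log2 change came to -1.005 (SE 0.09; relative -1.42; limma adjusted p of 0.00235), between -1.36 and -0.82 over 19 refits, all past the threshold at 0.05. EIF5A, which relieves stalled ribosomes, stood at 506, 562 and 502 TPM in WT and at 736, 734 and 819 TPM in KO libraries (log2 change 0.57, SE 0.11; limma adjusted p of 0.014). That rise of EIF5A was close to the 0.41 of all genes and did not pass after median ratio scaling (0.21; limma adjusted p of 0.274), while with the GC trend removed it was 0.75 (limma adjusted p of 0.0127), where the median of all genes was 0.13. Reads of EIF5A and EIF2S3 may be split with their copies EIF5AL1 and EIF2S3B, which held at most 5 and 3 reads per library. EIF5B had 78.6 ± 15.8 TPM in WT (SD, n = 3) and 80.0 ± 3.94 TPM in KO (SD, n = 2).

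In the poly(A) libraries the same mRNAs differed little. The authors' deposited table gave every member an adjusted p, and 40 of the 41 log2 fold changes were within 1.5-fold in either direction. Its numerator is not stated. A positive value was read as higher in KO, since 91.5% of the 177 genes that pass in both library types, with a size of 1 or more on each log2 scale, then share their sign. Without that limit on size the agreement was weaker. On this reading 648 genes were higher in both and 245 lower in both, while 379 were higher in the rRNA-depleted and lower in the poly(A) libraries. The reverse class is not given here. At the authors' adjusted p under 0.05, 10 members (24.4%) were lower in KO, where 10.3% of the 14009 genes with an adjusted p in the authors' deposited table were, and 4 (9.76%) were higher, where 9.55% of them were. The median was -0.10 over members and 0.02 over those genes, and 28 members had a value under 0. The SD of the log2 fold change was 0.30 over members and 0.78 over those genes.

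EIF6 had the largest difference among the members in the authors' deposited table, a log2 fold change of -1.07 (SE 0.11; adjusted p of 2.74e-20), that is 0.475 of the WT level. EIF5A followed in the authors' deposited table with -0.56 (SE 0.10; adjusted p of 8.79e-07), then EIF2B5 with -0.48 (SE 0.12; adjusted p of 0.000793) and EIF2S2 with -0.42 (SE 0.07; adjusted p of 7.28e-08). The other 6 that were lower in the authors' deposited table were EIF1 (-0.36), EIF3I (-0.35), EIF3F (-0.31), EIF2S1 (-0.29), EIF2B1 (-0.29) and EIF5 (-0.20). Those higher in the authors' deposited table were EIF4A2 with 0.48 (SE 0.07; adjusted p of 1.44e-11), EIF1B with 0.47, EIF4EBP2 with 0.43 and EIF3L with 0.26. EIF4G1 (-0.12) and EIF3B (-0.29), which fell in the rRNA-depleted libraries, did not pass in the authors' deposited table, with adjusted p-values of 0.476 and 0.211. By role, the authors' deposited table put 2 of 4 start selection factors, 2 of 3 eIF2 subunits and 2 of 5 EIF2B subunits lower past the threshold. It also put 2 of 13 EIF3 subunits and 2 of the 3 joining and other factors lower, and none of the 11 cap complex genes. Over all genes with an adjusted p the share lower was 10.3%, and these small counts by role were not tested.

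Set side by side, 10 members passed in both library types, 17 in the rRNA-depleted libraries alone, 4 in the poly(A) libraries alone and 10 in neither. EIF6 was lower in both (1 of 41 members; 1.96% of 12498 genes measured in both), and EIF1B, EIF3L and EIF4A2 were higher in both (7.32% of members; 5.18% of genes). The other 6, EIF1, EIF2S1, EIF2S2, EIF3F, EIF3I and EIF5A, were higher in the rRNA-depleted libraries and lower in the authors' deposited table (14.6% of members; 3.03% of genes). For EIF2S1 the values were 1.92 (SE 0.16) and, in the authors' deposited table, -0.29 (SE 0.06). For EIF3I and EIF5A the rRNA-depleted rise did not pass after median ratio scaling, while EIF1, EIF2S1, EIF2S2 and EIF3F kept theirs. Of those higher in both, EIF1B, with 3 WT reads in all, did not pass under that scaling either (limma adjusted p of 0.0504). EIF3L and EIF4A2 did. EIF3H and EIF3E, at 3.01 and 2.97 in the rRNA-depleted libraries, had -0.13 and -0.04 in the authors' deposited table, with adjusted p-values of 0.377 and 0.819. Whether a change differs between library types was not tested, since the poly(A) table holds no single libraries and the 2 log2 scales are not the same. The 41 pairs of changes correlated by 0.35 (Pearson) and 0.17 (Spearman), a description over genes.

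**Figure D3:**
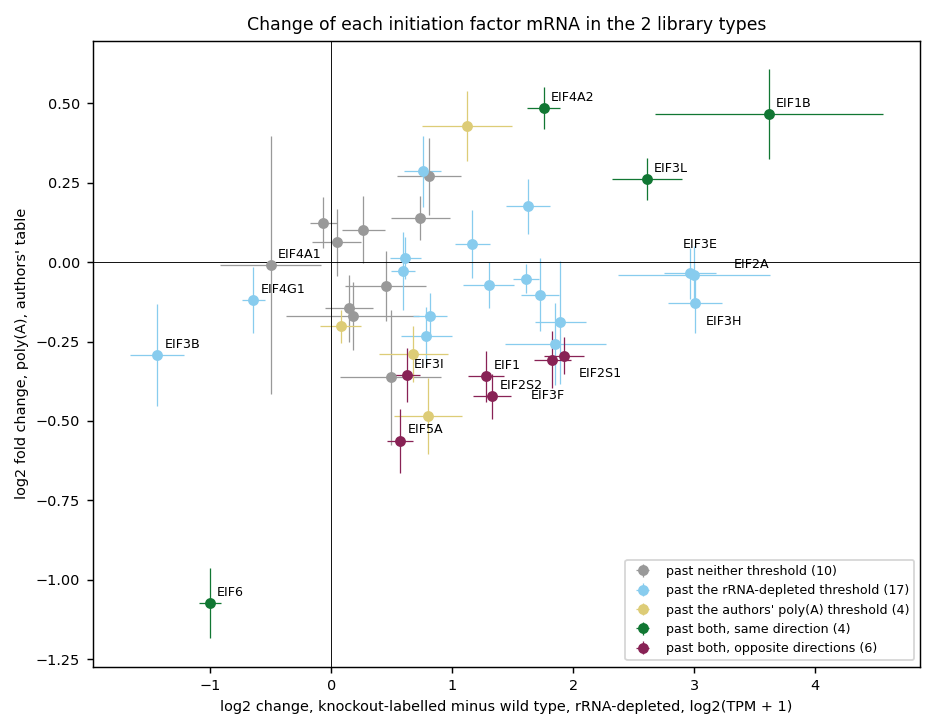
Log2 change in KO against WT in the rRNA-depleted libraries (x axis, log2(TPM + 1) scale) against the log2 fold change in the poly(A) libraries from the authors' deposited table (y axis), 1 point per member, with bars of 1 SE. The x values reach from -1.44 to 3.62 and the y values from -1.07 to 0.48, and EIF6 has the lowest y value.

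The members' changes also moved with the GC content of their transcripts, which ran from 35.1% to 65.5%. Over the 41 members the Spearman correlation of the rRNA-depleted log2 change with GC content was -0.33, against -0.37 over 14669 genes, and it was 0.03 after the trend of level with GC content had been removed from each library. In a split made after the values were seen, the 14 members of lowest GC content, up to 42.7%, had a median log2 change of 1.62, and the 13 of highest, from 49.6%, a median of 0.61. The 3 members that fell, EIF3B, EIF4G1 and EIF6, had 56.0%, 57.4% and 58.0% GC. EIF4EBP1 (65.5%) and EIF3G (60.3%), singled out after their values were seen, had still more GC and rose. With the GC trend removed, EIF5, EIF5B and EIF3A became lower past the threshold (log2 changes of -0.77, -0.98 and -0.83; limma adjusted p-values of 0.0137, 0.0416 and 0.00922), and EIF2S3 (-0.034), EIF4A3 (0.19), EIF4E2 (0.24), EIF4B (0.59), EIF2A (2.04) and EIF1B (2.83) no longer passed. In the authors' deposited table the log2 fold change of the members also fell with GC content, with a Spearman correlation of -0.40, over a much smaller range.

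**Figure D4:**
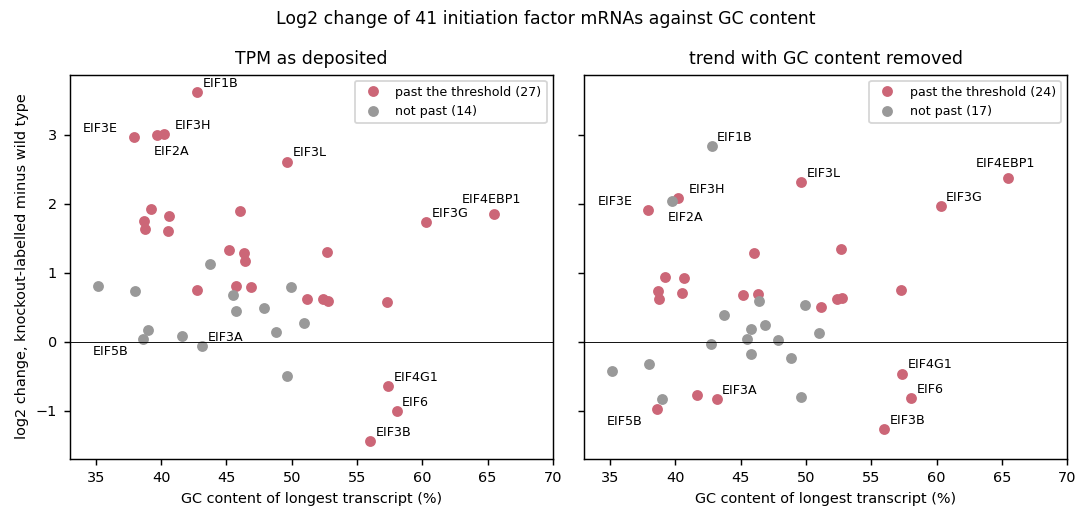
Log2 change of the 41 members in the rRNA-depleted libraries against the GC content of the longest transcript, with TPM as deposited (left) and with the trend of level with GC content removed from each library (right). Members past the threshold are red, 27 on the left and 24 on the right.

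On the deposited scale, the 8 mRNAs whose RefSeq start holds the pyrimidine tract were all above the median of all genes in the rRNA-depleted libraries. Their log2 changes ran from 0.59 (EIF3K) to 3.0 (EIF2A) with a median of 0.96. All but EIF3M, that is 7, were higher past the threshold, where 22.9% of all tested genes were. With median ratio scaling EIF2S3, EIF3D, EIF3K and EIF3M did not pass. With the GC trend removed EIF2A and EIF4B did not pass, and neither did EIF2S3 (-0.034) and EIF3M (-0.32), which then lay under the median of 0.13 of all genes. Among the 26 members with a known start and no tract the median was 0.65, with 11 higher and 3 lower. The 7 members with no start found are in neither set, and several of them rose strongly. EIF3H (3.01), EIF3E (2.97), EIF3L (2.61), EIF4EBP1 (1.85), EIF3G (1.73) and EIF2S2 (1.33) were higher past the threshold. EIF3A (-0.07) did not pass. Whether these mRNAs hold a tract is not known here, and the medians with and without it could shift with them. In the authors' deposited table the 8 had a median log2 fold change of 0.03, between -0.31 (EIF3F) and 0.48 (EIF4A2). For the CACGTG motif the medians were 0.81 in the 9 members with it and 0.73 in the 25 without it. With the GC trend removed the medians with and without the tract were 0.63 and 0.16. These are descriptions of small sets whose members also differ in GC content, and a match in a sequence is not shown to be a site that acts.

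Genes that act on the initiation factors or after them were counted from lists chosen by function. Of 9 eIF2 kinases and phosphatase subunits, 4 were higher and 3 lower in the rRNA-depleted libraries, where 22.9% and 12.4% of all tested genes were. The counts were 2 and 3 with median ratio scaling and 1 and 4 with the GC trend removed, so the balance of directions turned. EIF2AK4, the kinase that senses uncharged tRNA, was higher in both types, with 1.28 (limma adjusted p of 0.00859) and, in the authors' deposited table, 0.35 (adjusted p of 0.023). EIF2AK2, the kinase activated by double-stranded RNA and induced by interferon, was lower in the rRNA-depleted libraries, with -1.05 (limma adjusted p of 0.00342), and higher in the authors' deposited table, with 1.26. PPP1CA, a catalytic subunit of the phosphatase that reverses these kinases, was lower in both, with -2.27 and, in the authors' deposited table, -0.33. The regulatory subunit PPP1R15A, which directs that phosphatase to eIF2, was lower in the rRNA-depleted libraries alone (log2 change -0.97, SE 0.10; limma adjusted p of 0.00292).

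Of 25 other initiation and cap regulators, 22 were tested in the rRNA-depleted libraries, with 8 higher and none lower past the threshold, where 22.9% and 12.4% of all tested genes were. With median ratio scaling 7 were higher and 2 lower, DHPS (-0.91; limma adjusted p of 0.0197) and ABCF1 (-0.46; limma adjusted p of 0.037). PABPC1, the poly(A)-binding protein that contacts EIF4G1, averaged 300.2 ± 28.96 TPM in WT (SD, n = 3) and 1218 ± 109.5 TPM in KO (SD, n = 2), a rise of 2.02 on the log2 scale (limma adjusted p of 0.00118), and was higher in the authors' deposited table, with 0.34. MCTS1, which helps recycle ribosomes and restart them, was higher in the rRNA-depleted libraries with 2.08 and lower in the authors' deposited table with -0.43. Of 14 elongation and termination genes 12 were tested, with 4 higher and 2 lower, where again 22.9% and 12.4% of all tested genes were. In the separate fit over genes that averaged 5 or more reads, 34.2% of all genes were higher and 15.4% lower. The regulators and the elongation genes were not counted in that fit, and no excess is read from either list. With median ratio scaling 3 of the 12 elongation and termination genes were higher and 3 lower. The termination factor ETF1 was higher in both types, with 2.39 and, in the authors' deposited table, 0.25, while EEF1D and the mitochondrial factor TUFM were lower in both. EEF1B2, a nucleotide exchange subunit for EEF1A1, had 2.44 in the rRNA-depleted libraries and -0.45 in the authors' deposited table. GSPT2, singled out after its values were seen, had the lowest value of these lists in the authors' deposited table, -6.69 (SE 0.99). That value rests on few reads, with a normalized count of 5.03 averaged over libraries. GSPT2 was too low to be tested in the rRNA-depleted libraries.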

How the data were processed

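The members and lists were chosen with earlier results of these data known. Per the submitters' processing notes, Trimmomatic, STAR and DESeq2 were used with hg38; counting tool, annotation and strand setting are not given in the sources used here, so reads of overlapping and antisense genes may be mixed. The authors deposited TPM for the 6 rRNA-depleted libraries. For the poly(A) libraries, per the file headers, the authors' table gives each gene a normalized count averaged over libraries (a signal), the log2 fold change and its error, a test score, and raw and adjusted p-values. Counts per library are not used here, so that comparison is described as the authors made it.

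Gene lengths, positions and GC content came from GENCODE 29 (GRCh38), which matched 93.8% of the 60669 identifiers. Reads were recovered from TPM, length and the commonest low value, and 90.9% of values above 0 came out whole within 0.02 reads; for 5 members, EIF6 among them, reads are approximate. Pairs of libraries were compared over genes with at least 10 whole reads. The averaging of KO libraries 1 and 2 rests on that chi-square test.

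limma 3.58.1 in R 4.3.3 (lmFit, eBayes with trend) was run on log2(TPM + 1) of genes that reached 1 TPM in 3 or more libraries, with Benjamini-Hochberg adjustment over all of them at 0.05, and was tested on simulated data. There, with all genes included, more unchanged genes were called than the threshold allows, a limit that was not removed; over genes that averaged 5 or more reads this was not seen. The simulation's spread and design were revised once after a first version recovered few changes. Shares called over all genes are therefore less reliable than those over genes with at least 5 reads, and the main fit was kept as planned. This scale understates changes of low genes. Alternatives were pseudocount, filter, scaling, GC correction, variance model, threshold, voom, 6 separate libraries, a replicate block and leaving out each library; the filter of 5 mean reads was added after seeing the data. Values in every library are given for the members that rose most (6) or fell (3) and those past the threshold in both library types, and for some others chosen after their values were seen. Python 3.11.15, pandas 2.3.3, scipy 1.17.1 and matplotlib 3.10.9 were used.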

Additional observations from a re-analysis of the deposited data

How the results depend on the processing

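Leaving out 1 rRNA-depleted library at a time gave 12 to 28 members past the threshold, against 27, with 11 to 25 higher and 1 to 3 lower; the lowest values of each came without KO library 3, which leaves 1 KO sample. At a threshold of 0.01, 17 members passed, 14 of them higher. The number lower was 6 with the GC trend removed and 5 with voom. The members' median log2 change of 0.80 was 0.46 with median ratio scaling, 0.54 with the GC trend removed and 0.56 with voom, and relative to all genes it was 0.39, and 0.59 with quantile normalization. Signs turned in 9 members, all with a change of 0.80 or less. With the GC trend removed EIF1AX had -0.43, EIF2B2 -0.18, EIF2B3 -0.24, EIF2S3 -0.034, EIF3M -0.32, EIF4E -0.82, EIF5 -0.77 and EIF5B -0.98. With median ratio scaling EIF2B3 had -0.20, EIF2B4 -0.081, EIF4E -0.15, EIF5 -0.27 and EIF5B -0.31. With quantile normalization EIF2B3 had -0.14, EIF4E -0.21 and EIF5B -0.047, and with voom EIF2B3 had -0.075, EIF4E -0.015, EIF5 -0.10 and EIF5B -0.21. EIF4E had -0.29 without WT library 1, and EIF5B ranged from -0.13 (without WT library 3) to 0.16 (without WT library 2), with -0.0058 without KO library 3. Other than the samples left out, the cause was not tested. Over genes that averaged 5 or more reads, a setting added after seeing the data, 27 members were higher and 3 lower, with EIF1AX, EIF3M and EIF4EBP2 passing in addition. In all 19 refits EIF2S1, EIF2S2, EIF3E, EIF3F, EIF3G, EIF3H, EIF3J, EIF4A2, EIF4G2 and EIF4G3 stayed higher and EIF6 lower past 0.05. In the authors' deposited table, a size of 1 or more on the log2 scale left 1 member, which was lower, and 0.5 or more left 2, both lower, with 0 higher in each case.

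Replicate numbers recur in both genotypes, but deviations of same-numbered libraries from their group means correlated by 0.02, -0.02 and 0.008, and not every library correlated best with its own number, so the numbers do not pair them. A replicate block over 6 separate libraries gave 27 members higher and 3 lower (median log2 change 0.80), against 28 and 3 without the block.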
